A study of Mus musculus with 10 samples.

Results

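The keratins described here are 10 genes of stratified and basal epithelium, Krt5, Krt14, Krt15, Krt6a, Krt6b, Krt16, Krt17, Krt4, Krt13 and Krt78, chosen by symbol from the 24421 genes of a mouse read count table. All 10 symbols were found. They were read in 5 libraries of squamous cell carcinoma (SCC) of the lung, taken from NIH Swiss mice given NTCU, a nitrosourea carcinogen that induces lung SCC in mice, and in 5 libraries of normal lung from untreated mice of the same stock. Both groups were wild type per the labels. Regions were cut by laser capture from fixed, paraffin-embedded sections, and total RNA was made into stranded libraries for very small inputs. The sources used here do not state the animals' age, the NTCU dose or the time of sampling. No label says which animal a library came from. The p-values therefore reflect only how these libraries vary, part of which may be technical, and they are too small if regions of 1 animal gave several libraries.

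Keratins build the intermediate filaments of epithelial cells. A filament needs a type I (acidic) chain and a type II (basic) chain in equal parts, and the pair a cell uses follows its layer and its state. Krt5 and Krt14 form the pair of basal cells in stratified epithelium and in the conducting airway, and Krt15 is a further type I keratin of basal cells. Krt6a, Krt6b, Krt16 and Krt17 are induced in wounded or hyperproliferative epidermis, and some skin appendages hold them constitutively. Krt4 and Krt13 form the pair of the suprabasal layers of lining mucosa such as oesophagus and tongue, and Krt78 is another type II keratin of stratified epithelium. Alveoli are lined by simple epithelium, whose filaments are made of other keratins such as Krt8 and Krt18.

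The 5 type II members lie in the keratin cluster of chromosome 15, between Krt6b (chr15:101676023-101680287) and Krt78 (chr15:101946001-101954287). The 5 type I members lie in the cluster of chromosome 11, between Krt13 (chr11:100117327-100121566) and Krt17 (chr11:100256217-100261029). All 10 are on the minus strand, and positions are those of GENCODE M21 on GRCm38, the assembly of mm10. Krt6a overlaps Gm49428 on the opposite strand, a gene without a row in the count table, and the sources used here do not give the strand setting of the counting.

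Krt6a and Krt6b are shown side by side because their sequences limit how well their counts can be told apart. Their coding sequences were 97.6% identical, with 40 differences, and the longest run shared by their whole transcripts was 280 bases. The window below covers coding bases 817 to 876 of each gene, with the 10 bases that differ between the genes in capitals. It lies at chr15:101692484-101692543 in Krt6a and at chr15:101678303-101678362 in Krt6b (GRCm38, minus strand).
Krt6a: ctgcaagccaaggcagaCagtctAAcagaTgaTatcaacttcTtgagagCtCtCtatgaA
Krt6b: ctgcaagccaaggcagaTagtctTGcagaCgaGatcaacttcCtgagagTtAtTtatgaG
A read that covers such a window can be placed by these bases, while a short read inside the longest shared run matches both genes alike. The sources used here do not say how reads that match both genes were counted, so the split between Krt6a and Krt6b is uncertain. If such reads were left out, the levels of both genes and their sum are too low. Ratios, class sums and orders of levels that use these genes carry the same limit. Krt14 and Krt16 are the next closest pair, with 82.6% coding identity and a longest shared transcript run of 134 bases. Krt5 and Krt6a follow, with 75.5% coding identity and a transcript run of 140 bases.

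The 250 bases before the start were read for Krt5, Krt13 and Krt78, 1 of each kind of pattern that follows: a high basal keratin, a high mucosal keratin and a keratin at low counts. RefSeq promoter entries (GRCm38.p6) matched 4 of the 10 members, and the entry for Krt14 lies inside the gene and was not used. Capitals mark the letters ATAAAAG in all 3 sequences and CCACCC or its reverse complement GGGTGG in Krt13.
Krt5, chr15:101712906-101713155, minus strand: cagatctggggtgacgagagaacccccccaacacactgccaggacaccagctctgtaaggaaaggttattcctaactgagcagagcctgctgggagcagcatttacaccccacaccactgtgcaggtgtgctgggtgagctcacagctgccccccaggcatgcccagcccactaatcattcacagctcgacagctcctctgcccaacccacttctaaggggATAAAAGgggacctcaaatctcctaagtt
Krt13, chr11:100121567-100121816, minus strand: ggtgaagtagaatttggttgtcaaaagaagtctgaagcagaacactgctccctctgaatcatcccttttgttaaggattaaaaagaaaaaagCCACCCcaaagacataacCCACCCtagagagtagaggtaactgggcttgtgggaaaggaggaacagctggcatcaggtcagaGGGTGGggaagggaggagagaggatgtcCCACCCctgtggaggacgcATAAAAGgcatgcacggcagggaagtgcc
Krt78, chr15:101954288-101954537, minus strand: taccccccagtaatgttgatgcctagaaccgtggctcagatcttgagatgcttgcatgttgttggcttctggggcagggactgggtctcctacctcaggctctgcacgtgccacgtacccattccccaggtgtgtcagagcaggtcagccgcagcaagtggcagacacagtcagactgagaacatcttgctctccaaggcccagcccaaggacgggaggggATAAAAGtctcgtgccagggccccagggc
In all 3 windows ATAAAAG, a form of the TATA box, began 29 bases before the start. It was found on either strand in 4.83% of 32851 such windows, and at that exact place and strand in 63 of them (0.192%). CCACCC, a core of the sites bound by Krüppel-like and Sp factors, occurred 4 times in the Krt13 window, counting both strands, and in 28.1% of all windows. It was not found in the windows of Krt5 and Krt78, which says only that these letters are not there. Both motifs were chosen after the sequences were read.

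Total counts ran from 1004105 to 3691806 in the SCC libraries and from 1457641 to 6817106 in the normal lung libraries, and levels are given as counts scaled to a common library total (CPM, counts per 1e+06). Counts on 1439 olfactory and vomeronasal receptor genes, which neither tissue is known to express widely, were used to describe a background that scales with gene length. SCC 1, SCC 3 and SCC 4 held 3.26, 3.29 and 3.49 CPM per kb of this receptor signal, while SCC 2 and SCC 5 held 0.592 and 0.411. In the normal lung libraries it lay between 0.042 and 0.208 CPM per kb, so the SCC libraries stood above all of normal lung and SCC 1, SCC 3 and SCC 4 stood apart from the other SCC libraries. SCC 3 and SCC 4 also differed less from each other than the rest (chi-square per degree of freedom 2.93, where the other within-group pairs had at least 11.5), but by more than sampling noise, and were kept as separate libraries. For each keratin the share of its counts that a background of this size would give is set beside its values.

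All 10 keratins were higher in SCC than in normal lung, with no overlap between the groups for any of them. Most were abundant in every SCC library and at or near 0 in every normal library. Krt4 was the highest of the 10 per kb in each of the 5 SCC libraries. Captured regions hold many cells, so fewer cells that make a keratin and less of its RNA per cell cannot be told apart. Together the 10 genes took 0.269%, 0.236%, 0.106%, 0.142% and 0.679% of all counts in SCC 1 to SCC 5, against at most 0.000892% in a normal lung library (13 counts, 95% Wilson interval 0.000521% to 0.00153%, counting error only). By edgeR's quasi-likelihood test with Benjamini-Hochberg adjustment over 13203 genes, 12.5% of the genes tested were called higher in SCC and 8.68% lower, and in 8.81% every SCC library was above every normal one. The 10 members were all called higher. Each passed the filter on low counts through the SCC libraries, so a difference was needed for it to be tested and the count of 10 is a description. The median log2 fold change was 9.02 over the 10 members and 0.07 over all genes tested.

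**Figure D1:**
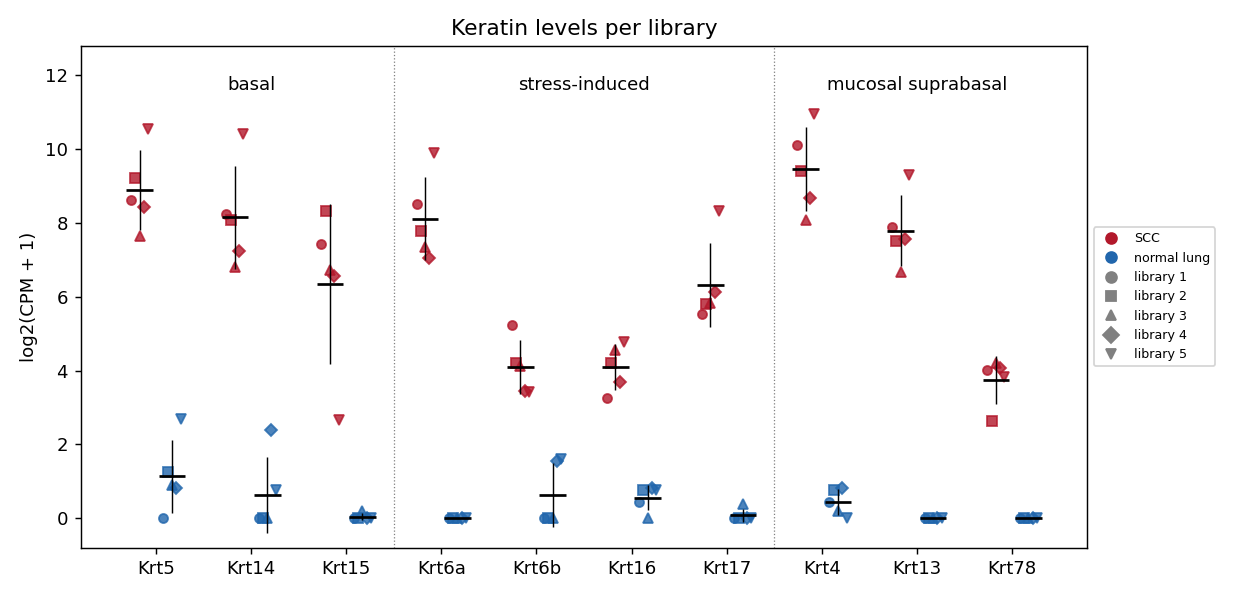
Level of each of the 10 keratins in every library, as log2(CPM + 1), with SCC left of normal lung within each gene. Points are libraries, horizontal bars are group means and vertical lines are SD (n = 5 each). Every SCC library lies above every normal lung library for each gene, and SCC 5 stands lowest for Krt15 and highest for Krt17.

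The basal pair was high in all SCC libraries. Krt5, the type II chain of basal cells, had 396, 598, 201, 343 and 1486 CPM in SCC 1 to SCC 5, against 0, 1.37, 0.88, 0.772 and 5.49 CPM in normal 1 to normal 5. Every SCC library lay far above the highest normal one, and the 18 counts in normal lung came from 4 of its 5 libraries. Its log2 fold change was 8.64 ± 0.79 (SE), with an adjusted p of 3.87e-08 by edgeR. Leaving out SCC 5 gave 7.91 and leaving out normal 5 gave 9.41, both still called. The background estimate for Krt5 was 0.508% of its SCC counts.

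Krt14, the type I partner of Krt5, had 305, 270, 110, 149 and 1354 CPM in SCC 1 to SCC 5, against 0, 0, 0, 4.24 and 0.686 CPM in normal 1 to normal 5. SCC 5 was again the highest and SCC 3 the lowest, and 11 of the 12 counts in normal lung lay in normal 4. Its log2 fold change was 8.74 ± 1.03 (SE), with an adjusted p of 2.89e-06 by edgeR. It was 7.56 without SCC 5, 8.11 without normal 3 and 11.56 without normal 4, called each time. Background could make up 0.568% of its SCC counts.

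Krt15 did not follow the other basal keratins in SCC 5. It had 172, 317, 105, 93.6 and 5.31 CPM in SCC 1 to SCC 5, and 1 count in all of normal lung, in normal 3. SCC 5, the library with the most Krt5 and Krt14, thus held the least Krt15, a range of 59.8-fold over the SCC libraries, against 7.40-fold for Krt5. Pooled CPM was 2491 times higher in SCC (95% counting interval 446.5 to 98462, which covers counting error only), or 1144 times higher without SCC 2, the library with the most. The adjusted p was 6.66e-08 by edgeR. Without SCC 2 the gene no longer passed the low-count filter. In SCC 5 its 13 counts included an estimated background of 1.78 counts, or 13.7%.

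Of the stress-induced keratins, Krt6a and Krt17 were abundant in SCC while Krt6b and Krt16 were not. Krt6a, the type II chain induced in wounded epidermis, had 362, 219, 163, 131 and 945 CPM in SCC 1 to SCC 5 and no count in any normal lung library. Of the 13203 genes tested, 9 (0.0682%) had no count in normal lung, and 3 of them were Krt6a, Krt13 and Krt78. A gene without a count in normal lung passes the low-count filter only through its SCC counts. This share is therefore set in part by the filter and is a description. Against a floor of 3 counts over the normal group (0.198 CPM), Krt6a was at least 1836-fold higher in SCC, or at least 1103-fold higher without SCC 5. The adjusted p was 1.46e-08 by edgeR, and background could make up 0.991% of its SCC counts.

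Krt17, a type I keratin of stressed and appendage epithelium, had 45.3, 55.0, 56.1, 68.7 and 323 CPM in SCC 1 to SCC 5, and 2 counts in normal lung, both in normal 3. SCC 1 to SCC 4 lay close together and SCC 5 stood far above them. Pooled CPM was 914 times higher in SCC (95% counting interval 252.6 to 7560), or 421 times higher without SCC 5. The adjusted p was 4.01e-08 by edgeR, with 2.06% of the SCC counts as estimated background.

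Krt6b, the near copy of Krt6a, had 36.8, 17.6, 16.5, 9.96 and 9.80 CPM in SCC 1 to SCC 5, against 0, 0, 0, 1.93 and 2.06 CPM in normal 1 to normal 5. It was highest in SCC 1, and SCC 4 and SCC 5 were the lowest. After subtracting the estimated background it had 29.5, 16.3, 9.17, 2.16 and 8.88 CPM in SCC 1 to SCC 5, so that SCC 4 was the lowest. Its log2 fold change was 4.41 ± 1.07 (SE), with an adjusted p of 0.00372 by edgeR, and 5.23 without normal 4. When SCC was represented by SCC 2 and SCC 5 alone, the call was lost (log2 fold change 3.99, adjusted p = 0.0752 by edgeR). Background could make up 21.4% of its SCC counts, and 78.3% of the 10 counts in SCC 4. With the counts of Krt6a and Krt6b added into 1 gene, the log2 fold change was 9.07 ± 0.86 (SE), with an adjusted p of 5.80e-08 by edgeR.

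Krt16, the type I chain usually paired with Krt6a, had 8.48, 17.6, 22.6, 11.95 and 26.5 CPM in SCC 1 to SCC 5, against 0.358, 0.684, 0, 0.772 and 0.686 CPM in normal 1 to normal 5. The highest SCC value was 3.13 times the lowest as counted, and 7.65 times the lowest after subtracting the estimated background. Its log2 fold change was 5.11 ± 0.99 (SE), with an adjusted p of 0.000483 by edgeR. Background could make up 13.1% of its SCC counts, and 60.1% of the 9 counts in SCC 1.

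The mucosal pair was also abundant in all SCC libraries. Krt4, the type II chain of lining mucosa, had 1115, 680, 271, 409 and 1999 CPM in SCC 1 to SCC 5, against 0.358, 0.684, 0.147, 0.772 and 0 CPM in normal 1 to normal 5. Normal lung held 5 counts in all, at most 2 in a library. Its log2 fold change was 11.06 ± 0.80 (SE), or 10.44 without SCC 5. Its adjusted p of 2.37e-09 by edgeR was the smallest of all 13203 genes tested. The estimated background, 0.362% of its SCC counts, was the smallest share among the 10 members.

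Krt13, the type I partner of Krt4, had 235, 183, 101, 187 and 634 CPM in SCC 1 to SCC 5 and no count in normal lung. It was at least 1351-fold higher in SCC against the floor, or at least 889.6-fold higher without SCC 5. The adjusted p was 9.42e-09 by edgeR, with 1.03% of the SCC counts as estimated background.

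Krt78 also had no count in normal lung, but its SCC values were low, at 15.1, 5.15, 17.6, 15.9 and 13.1 CPM in SCC 1 to SCC 5. It was lowest in SCC 2. After subtracting the estimated background it had 3.88, 3.11, 6.32, 3.95 and 11.7 CPM in SCC 1 to SCC 5, with SCC 5 the highest. As counted, with no background subtracted, it was at least 67.4-fold higher in SCC against the floor, with an adjusted p of 0.000149 by edgeR. The bound would be lower after subtraction. Background could make up 48.2% of its SCC counts, from 10.8% in SCC 5 to 75.2% in SCC 4. Without SCC 5 it no longer passed the low-count filter.

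Krt6b, Krt16 and Krt78 are thus the members for which the background is a large share of the counts, while for the other 7 it was 2.06% or less of the pooled SCC counts. After subtracting a background proportional to length and to the receptor signal, 6 members still passed the low-count filter (Krt5, Krt14, Krt6a, Krt17, Krt4 and Krt13), and all 6 were called higher, against 6.30% of the 11200 genes tested there. With no filter on low counts, an alternative added after seeing the data, all 10 were called, against 6.98% of 21440 genes, with adjusted p of 0.0387 for Krt6b, 0.0149 for Krt16 and 0.0106 for Krt78 by edgeR. When SCC was represented by SCC 2 and SCC 5 alone, 9 of 10 members were called higher, against 4.14% of 14305 genes.

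**Figure D2:**
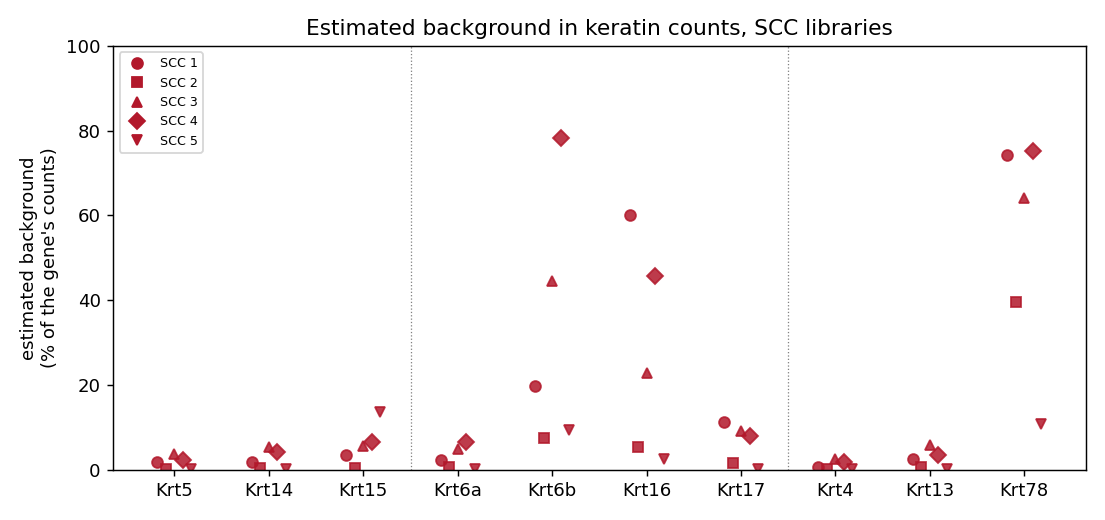
Estimated background as a percent of each keratin's counts in the SCC libraries, from gene length and the receptor signal of the library. Points are the 5 SCC libraries. Krt6b, Krt16 and Krt78 reach 78.3%, 60.1% and 75.2% in single libraries, while Krt5 and Krt4 stay under 5% in all 5.

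Levels were summed as CPM per kb of annotated exon. The 3 basal keratins reached 451, 605, 213, 294 and 1450 in SCC 1 to SCC 5, against at most 2.89 in a normal lung library. On the same scale and in the same order of libraries, the 4 stress-induced keratins reached 201, 145, 125, 111 and 620 in SCC, against at most 1.36 in normal lung. The 3 mucosal suprabasal keratins reached 656, 421, 188, 299 and 1289 in SCC, against at most 0.362 in normal lung. The stress-induced class was the lowest in all 5 SCC libraries, while basal and mucosal sums changed places between libraries.

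Within the 10 members, basal keratins made up 42.3% ± 6.20 (SD, n = 5) of the level per kb in SCC, mucosal keratins 40.5% ± 6.06 and stress-induced keratins 17.2% ± 4.31. The basal class was the highest in SCC 2, SCC 3 and SCC 5, and the mucosal class in SCC 1 and SCC 4. The total was highest in SCC 5, at 3359 CPM per kb, and lowest in SCC 3, at 526, while the basal share lay between 34.5% and 51.7% in every SCC library. Without SCC 5 the mean class sums were 391 CPM per kb for basal, 145.5 for stress-induced and 391 for mucosal keratins.

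**Figure D3:**
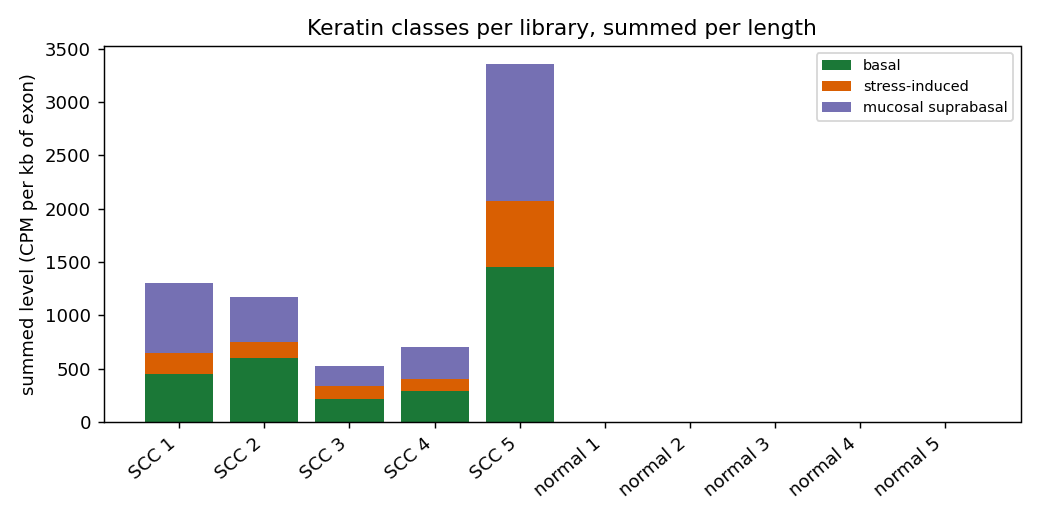
Summed level of the basal, stress-induced and mucosal suprabasal keratins in each library, in CPM per kb of exon, as stacked bars from 0. The 5 SCC libraries sum to between 526 and 3359 CPM per kb, and the normal lung bars are too small to see.

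Type II and type I partners were compared per kb within each SCC library. No normal lung library had 3 or more counts of both partners of any pair, so no ratio was formed there. The Krt5 to Krt14 ratio was below 2 in every SCC library, at 1.04, 1.77, 1.46, 1.84 and 0.878 in SCC 1 to SCC 5 (mean log2 ratio 0.42 ± 0.47, SD). Krt5 was higher than Krt14 in 4 of the 5 libraries.

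The Krt4 to Krt13 ratio was above 1 in all 5 libraries, at 4.06, 3.18, 2.28, 1.87 and 2.69 (mean log2 ratio 1.44 ± 0.43, SD). Thus the mucosal type II chain had more RNA per kb than its type I partner in each SCC library. Krt5 to Krt15 was 1.86, 1.51, 1.55 and 2.94 in SCC 1 to SCC 4 and 225 in SCC 5, so its mean log2 ratio of 2.30 ± 3.11 (SD) rested on SCC 5 and was 0.92 without it.

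The 2 stress-induced pairs lay on opposite sides of 1. Krt6a exceeded Krt16 in all 5 libraries, with ratios of 27.6, 8.05, 4.67, 7.12 and 23.1 (mean log2 ratio 3.48 ± 1.12, SD). The Krt6a to Krt16 mean was 3.92 after background subtraction. Its ratio in SCC 1 rests on 9 Krt16 counts, of which 60.1% could be background. Krt6b was below Krt17 in all 5, with ratios of 0.564, 0.222, 0.204, 0.101 and 0.0211 (mean log2 ratio -2.83 ± 1.77, SD). That mean was -3.49 after background subtraction and -3.87 over SCC 2 and SCC 5 alone. Pairs of the 2 abundant stress-induced keratins and of Krt6a with a basal partner were added after these values were seen. Krt6a to Krt17 was 5.13, 2.55, 1.86, 1.23 and 1.88, and Krt6a to Krt14 was 0.864, 0.589, 1.08, 0.640 and 0.507 in SCC 1 to SCC 5. Krt6a to Krt6b was 9.10, 11.5, 9.12 and 12.2 in SCC 1 to SCC 4 and 89.2 in SCC 5, subject to the uncertain split of their reads and to the 10 Krt6b counts in SCC 4, most of which could be background.

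Summed over the members, the 5 type II keratins exceeded the 5 type I keratins in every SCC library, by 2.01, 1.44, 1.31, 1.41 and 1.49 times (mean log2 ratio 0.60 ± 0.24, SD). Over all 23 type II and 27 type I keratin genes with an annotated length, the SCC libraries had ratios of 1.49, 0.957, 0.935, 1.12 and 1.40 in the same order, and the normal lung libraries lay between 0.53 and 1.11.

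**Figure D4:**
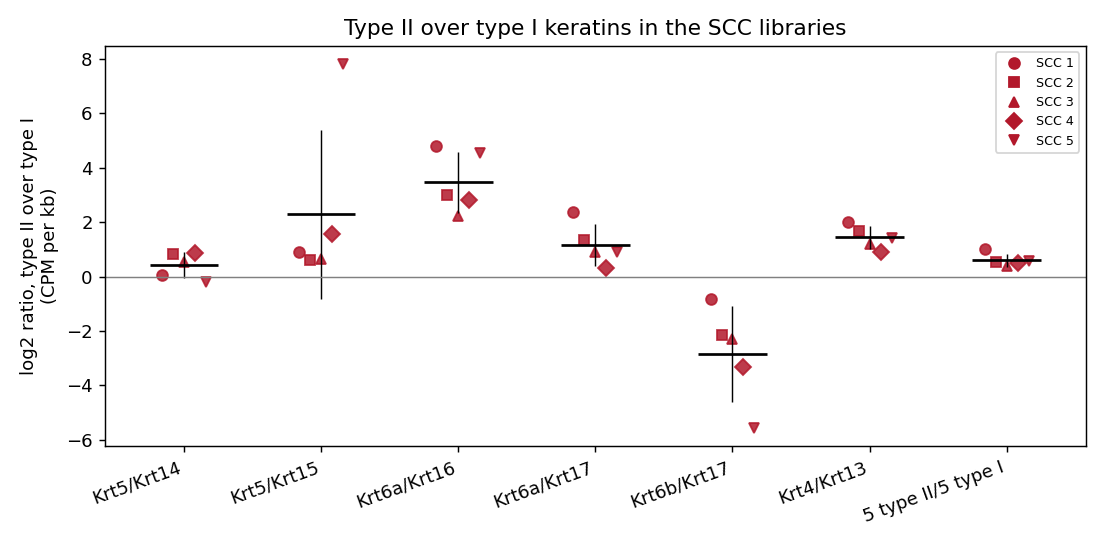
Log2 ratio of type II to type I keratin, each in CPM per kb, in the 5 SCC libraries. Points are libraries, bars are means and vertical lines are SD. Krt5/Krt14 lies around 0, Krt4/Krt13 and Krt6a/Krt16 lie above 0 in all 5 libraries, Krt6b/Krt17 lies below 0 in all 5, and SCC 5 stands apart at 7.81 for Krt5/Krt15.

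By geometric mean over the SCC libraries, the levels per kb ran in the order Krt4 (328 CPM per kb), Krt5 (216), Krt14 (161), Krt13 (121), Krt6a (114), Krt17 (51.1), Krt15 (44.3), Krt16 (10.4), Krt6b (7.26) and Krt78 (3.70). Of the 9 neighbouring pairs, only Krt4 over Krt5 and Krt6a over Krt17 held in all 5 libraries. By the exact two-sided sign-flip test both had the smallest p that 5 libraries allow, which lies above 0.05 (adjusted p = 0.281 over the 9 pairs). Krt13 and Krt6a stood in this order in 2 of 5 libraries, and Krt17 and Krt15 in 1 of 5, so neither pair differed beyond its spread. Krt5 over Krt14, Krt14 over Krt13, Krt15 over Krt16, Krt16 over Krt6b and Krt6b over Krt78 each held in 4 of 5.

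Most of the other keratins of the same clusters had too few counts to be tested. Of 40 other keratin genes with an annotated length, 8 passed the low-count filter, and Krt85, without a length, did not pass. Of these 8, 2 were called higher in SCC and none lower, where 12.5% of all genes tested were called higher. These were Krt19 (log2 fold change 2.27, adjusted p = 0.000475) and Krt23 (2.72, adjusted p = 0.00536), both by edgeR. Krt19 is a small type I keratin of simple and glandular epithelium and lies between Krt15 and Krt14 on chromosome 11. The 10 members made up 77.8%, 69.8%, 61.3%, 66.1% and 91.7% of the level per kb of all keratins in SCC 1 to SCC 5, against 0.39% to 5.41% in normal lung.

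Of the 40 others, 5 exceeded 10 CPM per kb on average in SCC: Krt19, Krt8, Krt18, Krt7 and Krt23. The other 35 averaged between 1.30 and 9.55 CPM per kb in SCC, against 0 to 7.50 in normal lung. Krt6b at 8.11 and Krt78 at 3.89 CPM per kb lay within that SCC range, and Krt16 at 11.1 lay just above it. The other 7 members averaged over 50 CPM per kb. For the 35, background could make up a median of 66.2% of the SCC counts.

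**Figure D5:**
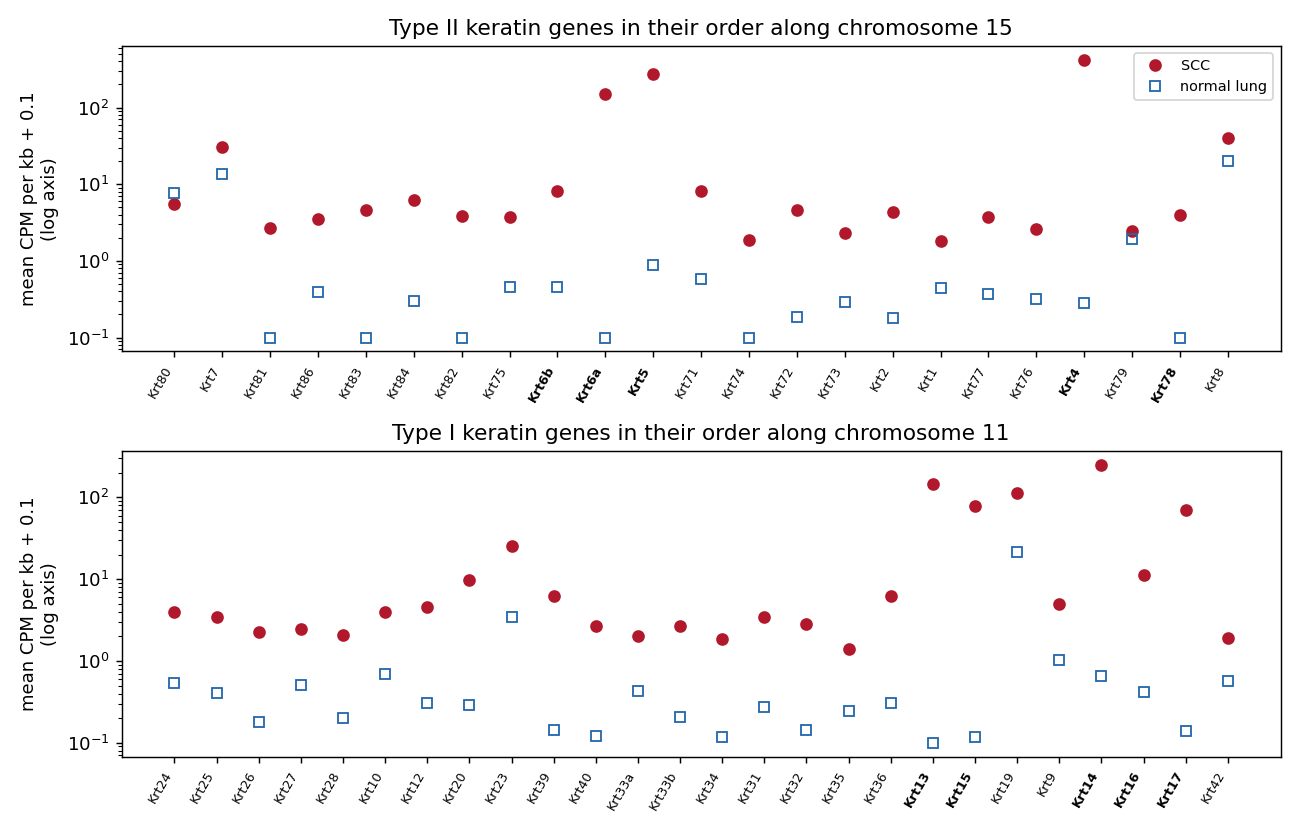
Mean level of the type II keratin genes of chromosome 15 (top) and the type I keratin genes of chromosome 11 (bottom) in SCC and normal lung. Levels are in CPM per kb plus 0.1 on a log axis, in gene order along the clusters. Krt18, a type I gene on chromosome 15, is not drawn. Names of the 10 members are in bold. In SCC, Krt5, Krt6a, Krt4, Krt13, Krt15, Krt14 and Krt17 stand above every gene of their panel not in bold, apart from Krt19. Krt16, Krt6b and Krt78 do not.

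Hair keratins, which build the hair shaft and the inner root sheath, lie in the same clusters. None of the 24 in the table passed the low-count filter. After background subtraction with no filter, 6 of the 24 were called higher (Krt36, Krt39, Krt72, Krt82, Krt83 and Krt84), with a median log2 fold change of 3.40 over the list, against 6.98% of all genes called higher there. For the 23 of them with an annotated length, the sum was 217, 47.1, 249, 244 and 41.2 CPM in SCC 1 to SCC 5, high in SCC 1, SCC 3 and SCC 4 as the receptor signal was, and 3.52 to 12.3 CPM in normal lung. The 10 members followed another order, with their highest sums in SCC 5 and SCC 1. Background could make up 46.2% to 69.7% of hair keratin counts in SCC, against 0.126% to 6.45% for the members.

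Among 10 keratins of cornifying and other specialised epithelium, 4 were tested and Krt23 was called. With SCC reduced to SCC 2 and SCC 5, 5 were tested and none was called by edgeR, Krt23 included. Krt1 and Krt10, the suprabasal pair of cornified epidermis, did not pass the filter. Krt1 had at most 12.1 CPM and Krt10 at most 18.9 CPM in SCC, against at most 6.17 and 3.43 CPM in normal lung. The estimated background was 119% of the pooled SCC counts of Krt1 and 55.0% of those of Krt10. Among 5 simple epithelial keratins, 4 were tested and Krt19 was called. Krt7 (log2 fold change 1.08, adjusted p = 0.0619 by edgeR) was not, but was called higher both after background subtraction and with SCC reduced to SCC 2 and SCC 5. After subtraction with no filter, Krt19 and Krt20 were called. Krt8 had a log2 fold change of 0.89 (adjusted p = 0.181) and Krt18 of 0.16 (adjusted p = 0.847), by edgeR.

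Genes that anchor or bind keratin filaments were in part also higher. Of 16 such genes, all tested, 10 were called higher in SCC and none lower, against 12.5% and 8.68% of all genes tested, with a median log2 fold change of 2.13 for the list. The lists of companion genes were drawn up with earlier results of these data known, so these counts are not independent evidence. Smallest in p were Pkp1, the plakophilin of suprabasal desmosomes (log2 fold change 7.75 ± 0.71, adjusted p = 3.87e-08), and Sfn, the 14-3-3 sigma protein that binds keratins in stratified epithelium (4.71 ± 0.52, adjusted p = 6.06e-07), both by edgeR with SE. Pkp1 had 76.0 to 263 CPM in SCC, against 0 to 2.74 CPM in normal lung, and Sfn had 74.7 to 430 CPM in SCC, against 4.30 to 11.4 CPM in normal lung.

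The other 8 called higher were Dsp, Pkp3, Ppl, Evpl, Col17a1, Itgb4, Eppk1 and Fam83h, which cover desmosome plaque, hemidesmosome and filament-binding proteins. The same 10 genes were called after background subtraction. Jup, Plec, Dst and Pkp2, also expressed in normal lung, had log2 fold changes between -0.54 and 0.21 and were not called. Itga6 (1.17, adjusted p = 0.0645) and Tchp (1.65, adjusted p = 0.0657) missed the threshold of 0.05 by edgeR.

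Of 13 transcription factors known to act on keratin genes, 7 were called higher and 1 lower, against 12.5% and 8.68% of all genes tested. Trp63, the master factor of basal and stratified epithelium, had 83.7 to 281 CPM in SCC, against 0.772 to 4.78 CPM in normal lung (log2 fold change 6.05 ± 0.57 SE, adjusted p = 4.55e-08 by edgeR). Zfp750, a factor of epidermal differentiation, had 48.8 to 105 CPM in SCC, against 2.05 to 7.52 CPM in normal lung (3.95 ± 0.51 SE, adjusted p = 4.18e-06 by edgeR). Grhl3, Klf5, Ovol1, Sox2 and Tfap2c were the others called higher, and Tfap2a was the 1 called lower (log2 fold change -1.25, adjusted p = 0.0355 by edgeR). Tfap2a was not called after background subtraction or with SCC 2 and SCC 5 alone. After subtraction 4 of 11 tested were called higher, Trp63, Zfp750, Grhl3 and Klf5, against 6.30% of all genes.

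Krt5, Krt6a and Krt13, 1 of each class, were matched to the non-keratin genes whose profile over the 5 SCC libraries was most like theirs. Likeness was the root mean square (RMS) difference of centred log2(CPM + 0.5), taken over 1363 genes called higher with a mean of at least 20 CPM in SCC. Nearest to Krt5 were Anxa8 (RMS difference 0.0997), Dsp (0.210) and Itgb4 (0.253), where the median over candidates was 1.68. Anxa8, a calcium-dependent phospholipid-binding protein, had 169, 241, 88.6, 128 and 679 CPM in SCC 1 to SCC 5, the same order of libraries as Krt5. Nearest to Krt6a were Sfn (0.143), Slc2a1 (0.262), a glucose transporter, and Slc6a14 (0.290), an amino acid transporter, where the median was 1.62. Nearest to Krt13 were Defb1 (0.245), a beta-defensin, Sema4b (0.269) and Ckmt1 (0.287), a mitochondrial creatine kinase, where the median was 1.49. These are descriptions over 5 libraries of the same group.

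Among the members themselves, Krt5 and Krt13 had the most alike profiles in SCC (RMS difference 0.338 on the same scale) of the pairs compared, those with Krt5, Krt6a or Krt13. Krt15 was the farthest from each of these 3, at 2.73, 2.82 and 2.71. It had 5.31 CPM in SCC 5, against 93.6 to 317 CPM in SCC 1 to SCC 4. Distances without SCC 5 were not computed. Krt6a lay at 0.372 from Krt4, 0.392 from Krt14 and 1.24 from Krt6b.

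The keratins were read beside markers of other cells. Over all genes tested, 12.5% were called higher in SCC and 8.68% lower. Of 7 basal cell markers, 6 were tested and 4 (Trp63, Aqp3, Itgb4 and Dsg3) were called higher. Ngfr (log2 fold change 0.89, adjusted p = 0.108) and Itga6 (1.17, adjusted p = 0.0645) were not called by edgeR. The 7 markers summed to 652 to 3601 CPM in SCC, against 163 to 253 CPM in normal lung. Dsg3, a desmosomal cadherin of stratified epithelium, had 62.2 to 531 CPM in SCC and no count in normal lung, and the labelled SCC thus held markers of squamous epithelium. All 8 alveolar markers were called lower in SCC, with sums of 413 to 832 CPM in SCC, against 8125 to 11519 CPM in normal lung, and the labelled normal lung thus held its defining markers. Of 6 club and ciliated cell markers, 2, Scgb1a1 and Tppp3, were called lower (sums of 1126 to 4342 CPM in SCC, against 8729 to 13614 CPM in normal lung). Scgb1a1 had 42.9 to 501 CPM in SCC, against 7387 to 11508 CPM in normal lung. Cyp2f2 had 950 to 3750 CPM in SCC, against 1072 to 1577 CPM in normal lung (log2 fold change 0.29, adjusted p = 0.708 by edgeR). Scgb3a2, Foxj1 and Ccdc153 had negative log2 fold changes and were not called.

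All 5 endothelial markers were called lower (sums of 86.2 to 210 CPM in SCC, against 1558 to 2715 CPM in normal lung). For this list and those below, the shares over all genes tested were 8.68% lower and 12.5% higher. Of 5 leukocyte markers, Ptprc and Lyz2 were called lower (sums of 377 to 626 CPM in SCC, against 971 to 1379 CPM in normal lung). No marker of these lists was at 0 over the SCC group. Of 8 hair follicle and skin markers, Flg2 and Tchh passed the filter and were called higher. Flg2 had 26.4, 8.67, 61.1, 33.9 and 16.3 CPM and Tchh 94.3, 55.5, 89.7, 97.6 and 70.2 CPM in SCC 1 to SCC 5. Both were higher in SCC 1, SCC 3 and SCC 4, as the receptor signal was, and their background share is not given here. Lor, the loricrin of cornified epidermis, had at most 2.20 CPM in an SCC library and was at 0 in normal lung. That list, which includes hair keratins, summed to 69.9 to 204 CPM in SCC, against 4.24 to 18.2 CPM in normal lung. The part of these shifts in the keratin differences was not tested.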

How the data were processed

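The authors deposited whole-number read counts per gene symbol, 1 column per library, with no normalization. Per the submitters' processing notes, the tools were DESeq2, HTSeq 0.6.1, TopHat2 2.0.1 and cutadapt 1.9.1 and the build mm10; the sources used here do not give the annotation, the strand setting or how reads matching several genes were treated. CPM was computed here over all 24421 genes. Groups were compared with edgeR 4.0.16 (R 4.3.3): filterByExpr by group, TMM, robust quasi-likelihood test, no covariate, Benjamini-Hochberg adjustment over 13203 genes, called at an adjusted p under 0.05. SE is the log2 fold change divided by the square root of F.

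Positions and lengths came from GENCODE M21 (24046 genes matched, 670 by an older symbol; 375 unmatched), and promoters from RefSeq. Receptor signal is counts per kb of coding length over 1439 olfactory and vomeronasal receptor genes, each capped at the library's 98th percentile. The estimated background of a keratin is this rate times its exon length.

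The members, classes and companion lists were chosen with earlier results of these data known. Named genes are the 10 members, the 2 called genes of smallest p in each companion list, and the 3 nearest non-keratin genes for Krt5, Krt6a and Krt13; others are named as counts of list members, chosen after their values were seen. Alternatives were DESeq2 size factors, the Wald test of DESeq2 1.42.0, limma-voom (limma 3.58.1) with quality weights, no low-count filter, a filter of 1 CPM in 5 libraries, SCC 2 and SCC 5 only, background subtraction, added Krt6a and Krt6b counts, Krt17 moved to the basal class, coding length, and each library left out. Intervals and floors (3 counts) cover counting error only. Depth ran from 1004105 to 6817106 counts.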

Additional observations from a re-analysis of the deposited data

Results flagged for a closer look

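Over 29 groups of 5 values checked, 5 held a library that stood apart by Dixon's criterion (the gap to the nearest value as a share of the range). For normally distributed values chance flags about 1 in 20 groups, and some flags can come from chance alone. The log2 ratio of Krt5 to Krt15 was 7.81 in SCC 5, where Krt15 was at 5.31 CPM, and lay between 0.60 and 1.56 in SCC 1 to SCC 4. Krt17 stood apart upwards in SCC 5, with a log2(CPM + 1) of 8.34, and did so too after the estimated background was subtracted. Krt78 stood apart downwards in SCC 2, with a log2(CPM + 1) of 2.62, but no longer did so after the estimated background was subtracted (3.11 CPM, against 3.88 to 11.7 CPM in the other SCC libraries). In normal lung the only nonzero values of Krt15 (log2(CPM + 1) of 0.20) and Krt17 (0.37) lay in normal 3, the deepest library, and rest on 1 and 2 counts. A group with 1 nonzero value is flagged whatever that value is, so the rate above does not apply to them.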

How the results depend on the processing

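Across 19 alternative fits, 180 of the 181 fold changes of single keratins with an adjusted p were called higher in SCC and 0 were reversed. The fits share libraries, 10 of them leaving out 1 library each, and members that failed the low-count filter are not counted. The number is therefore a description. The exception was Krt6b with SCC 2 and SCC 5 only (3.99, adjusted p = 0.0752 by edgeR). Krt15 without SCC 2 and Krt78 without SCC 5 were not tested. Krt17 had no adjusted p in DESeq2, where 9 of 10 members were called, against 6378 of 24421 genes. After background subtraction the members called were 6 of 6 tested. The number of genes called higher, 1645 of 13203, became 5470 of 22919 with no filter, 3551 of 17275 with the 1 CPM filter and 6378 of 24421 with DESeq2. It became 3257 of 13203 with limma-voom, 592 of 14305 with SCC 2 and SCC 5 only and 706 of 11200 after background subtraction. The number called lower, 1146, became 2072 with no filter, 2766 with limma-voom, 738 with SCC 2 and SCC 5 only and 682 after background subtraction. The median log2 fold change of all genes moved by 0.64 with no filter, 0.30 with the 1 CPM filter, 1.03 with DESeq2 and -0.29 after background subtraction, where other genes were tested, and by 0.08 with DESeq2 size factors in edgeR. The causes were not tested.

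Leaving out each library gave 1304 to 2207 genes higher and 1009 to 1473 lower, of 13485 to 14919 tested, and 9 to 10 members called. Neighbouring pairs ordered alike in each library numbered 2 to 4, against 2 with all libraries and 5 with SCC 2 and SCC 5 only (4 without SCC 5). Mean class sums ran from 391 to 699.9 CPM per kb for basal, 145.5 to 273 for stress-induced and 391 to 666 for mucosal keratins, so the order of basal and mucosal sums is not settled: with coding length they were 750 and 777. Mean log2 ratios ran from 0.31 to 0.58 for Krt5/Krt14, 0.92 to 2.72 for Krt5/Krt15, 3.15 to 3.79 for Krt6a/Krt16, -3.34 to -2.15 for Krt6b/Krt17, 1.297 to 1.58 for Krt4/Krt13 and 0.50 to 0.65 for the sums. No paired analysis was possible because the labels give no replicate numbers shared between the groups. Depth limits the normal lung values of the keratins, which rest on 0 to 18 counts over the group.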
